A study of Arabidopsis thaliana with 12 samples.

Results

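The genes described here are 5 transcription factor genes of Arabidopsis thaliana that act at the ends of light and hormone signaling pathways: HYH (light), MYC3 and MYC4 (jasmonate), EIN3 (ethylene) and BIM1 (brassinosteroid). They were chosen by gene symbol in the annotation of the array, and each was measured by 1 probe set. They are 5 of 13264 named nuclear genes, and all 5 were among the 9161 genes bright enough to be tested.

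The study followed transcript levels in seedlings kept in constant white light, where a daily rhythm must come from the plant itself. All 12 samples were whole seedlings of the Col-0 ecotype that carried a CCR2::LUCIFERASE reporter. They were grown on MS medium with sucrose at 22C in cycles of 12-h light and 12-h dark for 7 days, were then moved to constant white light at 22C, and were harvested every 4 h from 24 h to 68 h. There was 1 Affymetrix ATH1 array for each time and no untreated or arrhythmic group. Circadian time (CT) is given in hours after subjective dawn, so that 24 h and 48 h are both CT0, CT0 to CT12 is the subjective day and CT12 to CT24 the subjective night.

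HYH is a bZIP protein and the closest relative of HY5, with which it promotes light-dependent development of the seedling. MYC3 and MYC4 are bHLH proteins that work beside MYC2. JAZ proteins hold them inactive until jasmonate causes the JAZ proteins to be degraded, and the freed factors drive defense genes, among them those of glucosinolate synthesis. EIN3 is the main transcription factor of the ethylene response and is controlled largely through the stability of its protein. BIM1 is a bHLH protein that binds DNA together with BES1, a transcription factor of the brassinosteroid response.

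A 24-h cosine with a linear trend was fitted to log2 intensity for every tested gene, and a gene was called rhythmic when the limma F-test of the cosine gave an adjusted p below 0.05. The amplitude is the height of the fitted curve from its mean to its peak on the log2 scale. By this test 3 of the 5 genes were rhythmic, HYH, MYC4 and EIN3, where 11% of all tested genes were called. The 5 genes were chosen with earlier results of these data known, so these shares are given as a description. HYH and MYC4 peaked around subjective dawn and EIN3 in the middle of the subjective day. BIM1 had a fitted peak beside that of EIN3 but did not pass the test, and neither did MYC3.

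The 12 arrays had median intensities from 149.9 to 153.6, and pairs of arrays correlated at 0.979 to 0.992 over probe sets. The records of the arrays name 3 scan days. Day 1 holds 7 arrays (24 h and 32 h to 52 h), day 2 holds the 4 latest (56 h to 68 h) and day 3 holds the array of 28 h alone, so the later arrays were also mostly scanned on another day. The clock gene GI, which is well known to peak late in the day, peaked at CT10.5 ± 0.496 (SE) with a log2 amplitude of 0.61 ± 0.07 (limma, adjusted p = 0.000268). Of 15 green tissue markers fixed for a check of the labelled tissue, 6 were named on the array, with geometric mean intensities from 345.2 to 9976. Of these 6, 5 were rhythmic, where 11% of all tested genes were called. Of 10 root markers, 3 were named (204.7 to 10057) and none was rhythmic (limma, adjusted p from 0.486 to 0.870), and no seed or embryo marker of 7 was named. In whole seedlings a lower transcript level in each cell and a smaller share of the cells that hold the transcript cannot be told apart. Whether the green tissue markers have a part in the rhythms below was not tested.

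**Figure D1:**
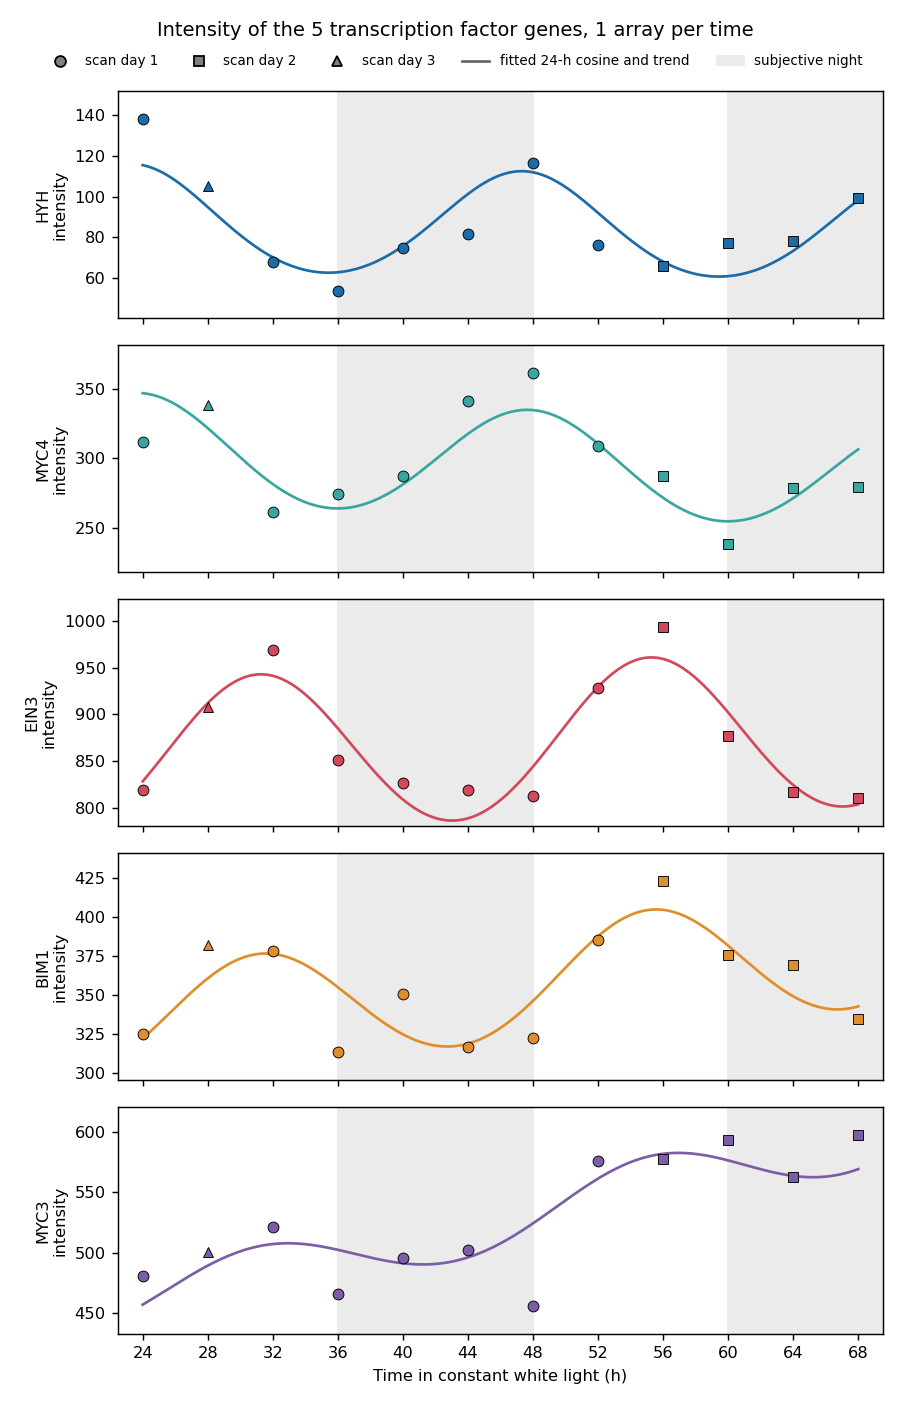
Intensity of each of the 5 genes (vertical axes, each with its own range that does not start at 0) against time in constant white light in hours, with 1 array per point. Circles, squares and the triangle are scan days 1, 2 and 3, the line is the fitted 24-h cosine with its trend, and grey marks subjective night. HYH and MYC4 are high near CT0, EIN3 and BIM1 at CT4 and CT8, and the MYC3 points from 52 h on (562.8 to 597.8) all lie above the earlier ones (455.7 to 521.3).

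HYH (AT3G17609) had the largest fitted rhythm of the 5 genes. In the first cycle its intensity was 138.2 at CT0, 105.1 at CT4, 67.9 at CT8, 54.0 at CT12, 75.0 at CT16 and 81.6 at CT20. In the second cycle it was 116.7, 76.3, 65.8, 77.4, 78.2 and 99.2 at the same circadian times. CT0 was the highest time in both cycles, and the lowest time moved from CT12 to CT8. The fitted log2 amplitude was 0.43 ± 0.08 (SE), which is a ratio of peak to trough of 1.82 with a 95% interval of 1.44 to 2.30 (limma, adjusted p = 0.00680). The fitted peak fell at CT23.4 ± 0.741, with a 95% interval from CT21.8 to CT0.953.

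The HYH amplitude stood at percentile 98.5 of all tested genes, and its scatter was also high. The residual SD around the curve was 0.24 on the log2 scale, at percentile 97.2, while the geometric mean intensity of 83.5 was at percentile 2.50 and just above the filter limit of 80.1. CT0 exceeded the next highest time, CT20, by 0.50 on the log2 scale. That was more than 0.25, the SD between the cycles at one circadian time, which leaves out a gene's mean shift between cycles. None of the other neighbours in the order of the 6 times differed by more than that SD. The rhythm call was kept without any one of the 12 arrays (limma, adjusted p from 0.00200 to 0.0410) and with the scan day as a block (adjusted p = 0.00191, where 8.44% of genes were called), a fit in which the lone array of day 3, 28 h, no longer bears on the curve. It was also kept in the 7 arrays of scan day 1 alone (adjusted p = 0.00771, where 3.17% of genes were called). It was lost on linear intensities (limma, adjusted p = 0.0534) and with the 6 circadian times as levels (0.0654). The limma test draws the high variance of HYH down toward a common value, an SD of 0.10 on the log2 scale. With the gene's own variance in its place the call was also lost (F-test, adjusted p = 0.0707).

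MYC4 (AT4G17880) peaked at nearly the same time as HYH with a smaller change. In the first cycle its intensity was 311.9 at CT0, 338.3 at CT4, 261.7 at CT8, 274.2 at CT12, 287.6 at CT16 and 341.4 at CT20. In the second cycle it was 361.3, 309.1, 287.4, 238.3, 278.6 and 279.8. The 3 times around dawn, CT20, CT0 and CT4, held the 3 highest values of the first cycle, whereas in the second cycle CT20 lay below CT8. The log2 amplitude was 0.18 ± 0.05 (SE), a ratio of peak to trough of 1.29 with a 95% interval of 1.13 to 1.48, and the peak was at CT23.8 ± 0.996 (limma, adjusted p = 0.0426). No neighbouring times in the order of levels differed by more than the SD between cycles, 0.14 on the log2 scale.

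The MYC4 call stood close to the threshold. It was lost without any one of 10 of the 12 arrays (limma, highest adjusted p 0.121, without 48 h), with the scan day as a block (adjusted p = 0.150) and in scan day 1 alone (adjusted p = 0.210). The log2 amplitude was 0.15 with the block and 0.18 in scan day 1 alone, against 0.18 in all arrays.

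MYC3 (AT5G46760), the other jasmonate factor, had no rhythm that the test could separate from scatter. Its intensity was 481.1 at CT0, 500.9 at CT4, 521.3 at CT8, 465.4 at CT12, 495.8 at CT16 and 502.0 at CT20 in the first cycle. It was 455.7, 575.9, 577.3, 593.0, 562.8 and 597.8 in the second. The highest time was CT8 in the first cycle and CT20 in the second. The log2 amplitude was 0.07 ± 0.04 (SE), and the ratio of peak to trough was 1.1 with a 95% interval of 0.969 to 1.24 (limma, adjusted p = 0.505), so that a change above 1.24-fold lies outside the interval of a 24-h curve. Its amplitude was at percentile 34.9 of tested genes.

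The MYC3 values of the second cycle were mostly above those of the first. They were higher in the second cycle at 5 of the 6 circadian times, the exception being CT0, and the geometric mean of the second cycle was 1.13 times that of the first. All 5 values from 52 h on, 562.8 to 597.8, lay above all 7 values up to 48 h, 455.7 to 521.3. This division was chosen after the values were seen, and how many other tested genes share it was not counted. The fitted slope was 0.20 ± 0.05 log2 units (SE) per 24 h, a 1.15-fold rise with a 95% interval of 1.06 to 1.24. Its unadjusted p was 0.00247 (limma), and 1204 of the 9161 tested genes had an unadjusted p below 0.05 in this test. The trend did not pass adjustment over all tested genes (limma, adjusted p = 0.169), where 0.0218% of them were called. Of the 5 high arrays, 4 make up scan day 2 and the fifth, 52 h at 575.9, belongs to day 1. With the scan day as a block the slope was 0.12 (adjusted p = 0.933), and in scan day 1 alone it was 0.10 (adjusted p = 0.974), and the part of the scan day in this rise cannot be told apart from that of time.

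EIN3 (AT3G20770) traced the most repeatable curve of the 5 genes. In the first cycle its intensity was 818.3 at CT0, 908.1 at CT4, 968.5 at CT8, 851.0 at CT12, 826.3 at CT16 and 819.3 at CT20. In the second cycle it was 812.5, 928.6, 994.0, 876.5, 816.6 and 809.8. In both cycles the level rose from CT0 over CT4 to CT8 and fell through CT12 to a flat night. The log2 amplitude was 0.14 ± 0.03 (SE), a ratio of peak to trough of 1.21 with a 95% interval of 1.1 to 1.33, and the peak was at CT7.15 ± 0.913 (limma, adjusted p = 0.0344).

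The largest gap between the EIN3 cycles at one circadian time was 1.03-fold, at CT12, and the SD between cycles was 0.02 on the log2 scale. By that SD, CT8 stood above CT4, CT4 above CT12 and CT12 above CT16, and the order of CT16, CT0 and CT20 was not resolved. The residual SD of EIN3, 0.05 on the log2 scale, was at percentile 1.82 of tested genes. The limma test draws such a low variance toward the common value of 0.10 (SD, log2). With the gene's own variance in its place the adjusted p was 0.0164, where 6.69% of genes were called, whereas those of HYH and MYC4 were 0.0707 and 0.104 and passed no longer. The EIN3 call was lost without any one of 8 arrays (highest adjusted p 0.150, without 56 h), with the scan day as a block (adjusted p = 0.0694) and in scan day 1 alone (adjusted p = 0.468). The log2 amplitude hardly moved, at 0.14 with the block and 0.13 in scan day 1 alone.

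BIM1 (AT5G08130) had a curve of the same timing as EIN3 with more scatter. In the first cycle its intensity was 325.3 at CT0, 382.2 at CT4, 378.2 at CT8, 313.4 at CT12, 350.5 at CT16 and 316.9 at CT20. In the second cycle it was 322.5, 385.1, 423.2, 375.3, 369.0 and 335.0. CT4 and CT8 held the highest pair of values in each cycle, and CT12 was the lowest time in the first cycle but the third highest in the second. The log2 amplitude was 0.15 ± 0.04 (SE), a ratio of 1.23 with a 95% interval of 1.08 to 1.40, and the peak was at CT7.14 ± 1.1. The test gave an unadjusted p of 0.0118 and an adjusted p of 0.0802 (limma), so BIM1 was not called rhythmic. Without the array of 36 h (CT12) it passed, with an adjusted p of 0.0321 and a peak at CT8.50, and it did not pass without any other single array. Its slope of 0.10 ± 0.05 log2 units (SE) per 24 h did not pass (limma, adjusted p = 0.428).

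**Figure D2:**
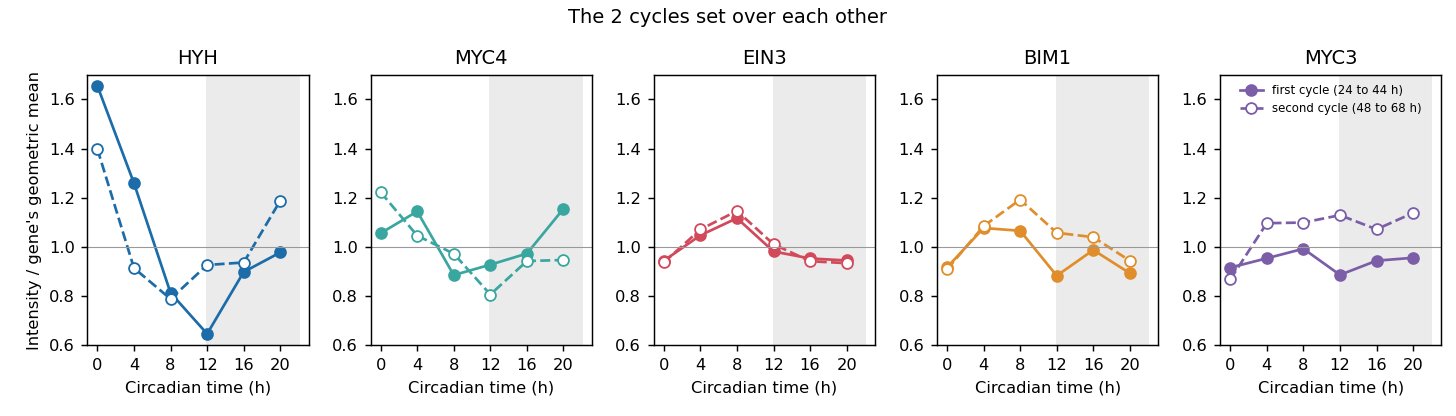
Intensity divided by the gene's geometric mean (vertical axis) against circadian time in hours, with the first cycle (24 h to 44 h) and the second (48 h to 68 h) as separate lines, 1 array per point, and grey for subjective night. The EIN3 lines lie within 1.03-fold of each other at every time, while those of HYH differ by up to 1.43-fold, at CT12.

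Setting the cycles over each other ranked the genes by how closely the first day's curve was repeated on the second, apart from a mean shift. The mean shift between cycles was taken out first and was largest for MYC3, at 1.13-fold. The SD between cycles on the log2 scale was 0.02 for EIN3, 0.07 for BIM1, 0.10 for MYC3, 0.14 for MYC4 and 0.25 for HYH. Over the 6 circadian times, the correlation of the first with the second cycle was 0.988 for EIN3, 0.722 for BIM1, 0.677 for HYH, 0.425 for MYC4 and 0.259 for MYC3, given as a description over 6 pairs. None of the 5 genes passed the test of a difference between cycles in the fitted curve (limma, adjusted p = 0.453 for HYH and 0.766 to 0.968 for the others), where 0.0109% of tested genes were called. HYH came nearest, with an unadjusted p of 0.0339 (limma), where 931 of the 9161 tested genes had one below 0.05. Its fitted peak was at CT0.341 with a log2 amplitude of 0.57 in the first cycle and at CT21.7 with 0.34 in the second. The fitted EIN3 peaks of the cycles were CT7.01 and CT7.26.

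No trend passed the test for the remaining genes either. Beside the BIM1 slope given above, the slopes per 24 h were -0.04 ± 0.10 (SE) for HYH, -0.05 ± 0.06 for MYC4 and 0.03 ± 0.04 for EIN3 on the log2 scale, with adjusted p from 0.732 to 0.879 (limma).

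**Figure D3:**
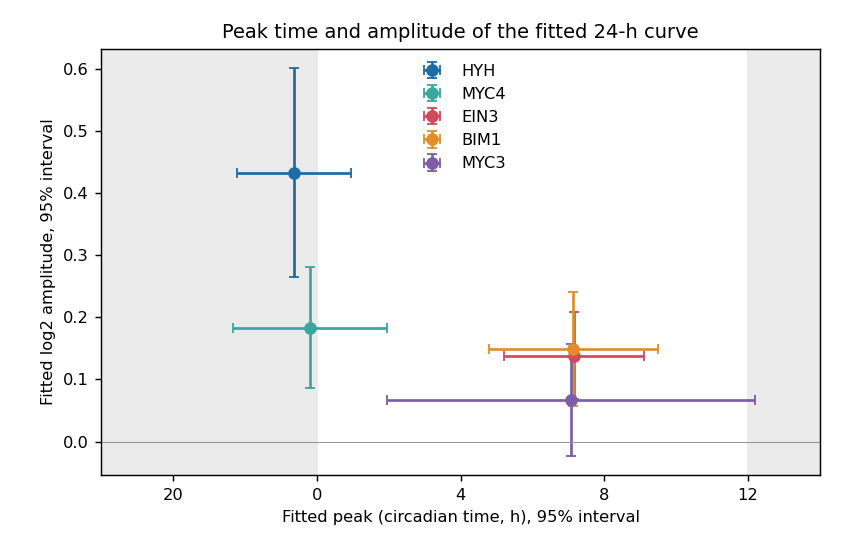
Fitted log2 amplitude (vertical axis) against the circadian time of the fitted peak in hours (horizontal axis) for the 5 genes, with 95% intervals as bars and grey for subjective night. HYH and MYC4 lie at CT23.4 and CT23.8, EIN3, BIM1 and MYC3 at CT7.08 to CT7.15, and the bar of MYC3 reaches below an amplitude of 0.

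The fitted peaks thus fell near 2 times of day. Of all rhythmic genes, 17.6% peaked from CT22 to CT2 and 20.2% from CT5 to CT9. Of all tested genes, 11.7% and 17.3% had their fitted peak in these windows. HYH and MYC4 differed by 0.442 h, with a 95% interval from -3.12 h to 4.01 h, and EIN3 and BIM1 by less than 0.1 h, with an interval from -2.69 h to 2.67 h, so that differences of a few hours within each pair lie inside the intervals. EIN3 followed HYH by 7.79 h (95% interval 5.28 h to 10.3 h) and MYC4 by 7.34 h (4.21 h to 10.5 h). BIM1 followed HYH by 7.78 h (4.49 h to 11.1 h) and MYC4 by 7.33 h (3.92 h to 10.7 h). These 4 intervals between the pairs all excluded 0. The pairs were drawn from these same fitted peaks, so the intervals are a description and no separate test. BIM1, moreover, was not called rhythmic. The MYC3 peak at CT7.08 had an interval from CT1.96 to CT12.2 and was not used to place that gene.

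Over the 12 arrays, which the genes share, detrended log2 intensities of EIN3 and BIM1 correlated at 0.868. Those of MYC3 correlated with BIM1 at 0.708 and with EIN3 at 0.637, and those of HYH with MYC4 at 0.539. All remaining pairs were negative, from -0.488 for the jasmonate factors MYC3 and MYC4 to -0.126 for HYH and MYC3. When the period was left free between 19 h and 29 h, the best period was 22.0 h for HYH, 23.5 h for EIN3, 26.5 h for BIM1 and 27.0 h for MYC4, and that of MYC3 lay at the upper limit of 29 h. A 24-h curve held 80.2% of the detrended log2 variance of EIN3, 70.1% of that of HYH, 63.8% of that of MYC4, 57.9% of that of BIM1 and 24.4% of that of MYC3.

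**Figure D4:**
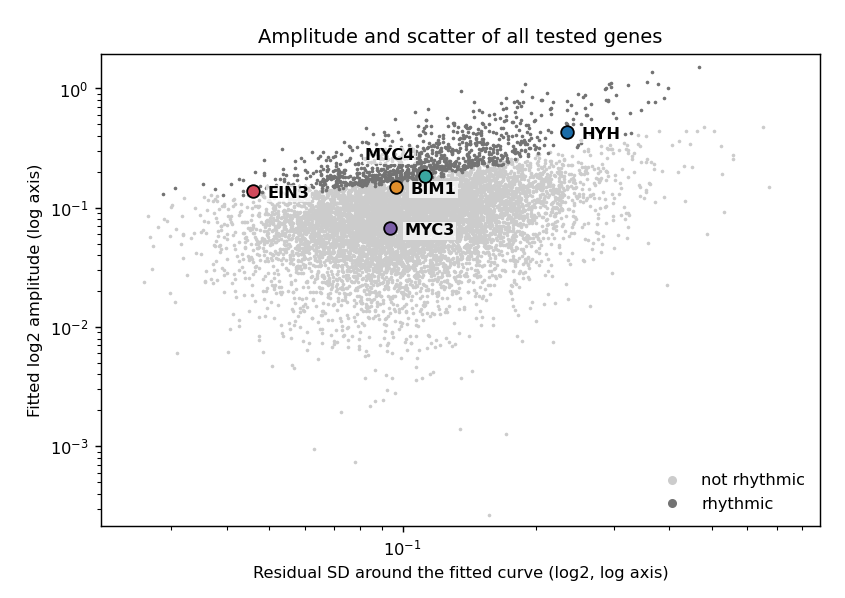
Fitted log2 amplitude (vertical axis) against the residual SD around the fitted curve (horizontal axis, log2 units) for all 9161 tested genes, both axes logarithmic, with rhythmic genes in dark grey and the 5 genes named. HYH pairs a high amplitude (0.43) with a high residual SD (0.24), and EIN3 pairs an amplitude of 0.14 with a residual SD of 0.05.

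Of all tested genes, those whose detrended values followed each factor most closely were listed, with likeness measured by Pearson's r of detrended log2 intensity over the 12 times. For HYH they were RCA, which encodes Rubisco activase (r = 0.956, peak at CT23.4), GR1, which encodes a glutathione reductase (r = 0.955, CT23.8), and AT3G15760 (r = 0.954, CT23.7). All 3 were rhythmic, where 11% of all tested genes were called. A gene picked by likeness tends to share its factor's rhythm and peak time. The calls of these nearest genes, for any factor, are therefore no separate result. RCA is also one of the green tissue markers, 5 of 6 of which were rhythmic. The other rhythmic markers peaked at CT19.5 (SBPASE), CT20.0 (LHCB4.3), CT4.05 (LHCB4.2) and CT5.63 (LHCB4.1). For MYC4 the nearest genes were AT2G20560 (r = 0.942, CT23.4), AT1G55210 (r = 0.927, CT0.299) and AT3G27350 (r = 0.924, CT23.8), of which AT1G55210 was not rhythmic.

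For EIN3 the nearest genes were AT5G01750 (r = 0.963, CT7.57), AT5G60680 (r = 0.954, CT7.81) and AT4G05070 (r = 0.942, CT6.95). All 3 were rhythmic with log2 amplitudes from 0.28 to 0.33, larger than the 0.14 of EIN3. For BIM1 they were AT5G51140 (r = 0.908), AT2G29290 (r = 0.899) and BIGYIN, which encodes a protein of organelle division (r = 0.897), and only AT2G29290 of these was rhythmic. For MYC3 they were AT3G22240 (r = 0.929), BCAT4, which encodes an aminotransferase of methionine-derived glucosinolate synthesis (r = 0.923), and OCT1, which encodes an organic cation transporter (r = 0.922), and none of these was rhythmic.

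The other genes of the 4 pathways were taken from lists, of which the array's annotation named only a small share. Of 43 light signaling genes, 2 were named and tested, and HYH was the rhythmic one. The other, FHL, which helps phytochrome A enter the nucleus, had a log2 amplitude of 0.08 ± 0.08 (SE; limma, adjusted p = 0.754). Of 18 flavonoid and early light genes, 2 were tested and both were rhythmic, where 11% of all tested genes were called. DFR, which encodes dihydroflavonol reductase of anthocyanin synthesis, ranged from 284.9 to 1919 in intensity, with a ratio of peak to trough of 4.08 and a peak at CT22.2 (limma, adjusted p = 0.000366). UGT84A1, which encodes a glucosyltransferase of phenylpropanoids, had a ratio of 1.48 and a peak at CT21.8 (adjusted p = 0.0132).

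On the jasmonate side, MYC3 and MYC4 were the only named members of 33 signaling genes. Of 24 genes of jasmonate synthesis and response, 5 were named, 3 were tested and none was rhythmic. They were OPCL1, an enzyme of jasmonate synthesis (limma, adjusted p = 0.0918), ORA47, a transcription factor of that synthesis (0.145), and the thionin gene THI2.1 (0.376), while JMT and PDF1.2 were below the intensity filter. Neither tested gene of 24 in glucosinolate synthesis was rhythmic, BCAT4 at an adjusted p of 0.331 and UGT74B1 at 0.185.

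Of 29 ethylene signaling genes, 4 were tested and EIN3 alone was rhythmic. The others were RTE1, which acts with the receptor ETR1 (limma, adjusted p = 0.346), its homolog RTH (0.520), and ETP2, an F-box protein that acts on EIN2 (0.697). Of 23 genes of ethylene synthesis and response only PDF1.2 was named, and it was below the filter. Of 39 brassinosteroid signaling genes 3 were named, and BIM1 was the only one tested, since CES and BRL1 had geometric mean intensities of 60.2 and 65.2. None of 17 brassinosteroid synthesis genes was named. Over all tested genes the median log2 amplitude was 0.09. Over tested list members, the factors included, it was 0.26 in light, 0.13 in jasmonate, 0.07 in ethylene and 0.15 in brassinosteroid signaling. The light value is from HYH and FHL alone, the jasmonate value from MYC3 and MYC4 alone, and the brassinosteroid value from BIM1 alone. With 1 to 4 tested genes a list, these counts describe the genes named and not the pathways.

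**Figure D5:**
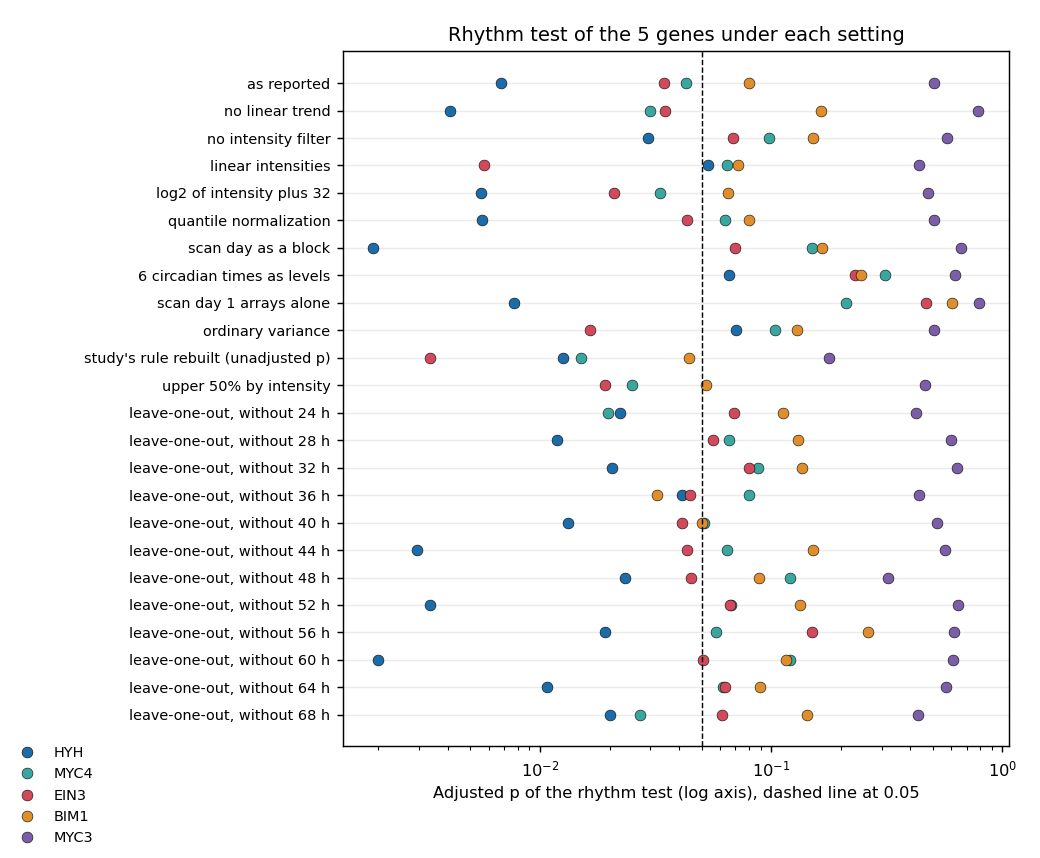
P-value of the rhythm test (horizontal axis, logarithmic, dashed line at 0.05) for the 5 genes under each setting (rows), adjusted over all tested genes except for the study's rule as rebuilt, which is unadjusted. HYH lies left of the line without any one array, MYC4 and EIN3 cross it in many rows, and MYC3 lies right of it in every row.

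The circadian times were also fitted as 6 levels with no curve assumed, with a term for the cycle. By that test none of the 5 genes passed after adjustment and 3 had an unadjusted p below 0.05 (limma, adjusted p = 0.0654 for HYH, 0.230 for EIN3, 0.310 for MYC4, 0.245 for BIM1 and 0.620 for MYC3), where 3.62% of tested genes were called and 16.8% had an unadjusted p below 0.05.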

How the data were processed

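For 22810 probe sets on 12 arrays the authors deposited linear intensities, already scaled between arrays. The submitters' notes name MAS5 with no version and the methods name dChip for expression values, and the sources used here do not say which made the values. The array records deposited by the authors hold other information than expression, of which only the scan day was used. No sample column was left unused (0).

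Probe sets were named from GEO's platform annotation and the RefSeq table (assembly TAIR10.1). Of 13513 with 1 symbol, 13436 matched by ID and 48 by locus. Those with several symbols (503) or none (8794) were left out, which left 13415 nuclear probe sets of 13264 genes. A floor of 1 was applied to intensity (reached by 2 to 12 values on an array) before log2. Probe sets in the upper 69% by mean log2 were tested, the brightest for each gene (9161 genes). No sequences or coordinates were used here.

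A 24-h cosine and sine with a linear trend were fitted in limma 3.58.1 (R 4.3.3), with 8 residual degrees of freedom and Benjamini-Hochberg adjustment at 0.05. Standard errors and 95% intervals come from the moderated variance. The intervals of peak differences between genes also use the unmoderated residual covariance of the pair, with 8 degrees of freedom. With 1 array per time, errors measure scatter around the curve, and the number of arrays limits precision. The fit was tested on simulated data. The trend was tested by its slope, and cycles by their interaction with the cosine. Alternatives were the trend term, the intensity filter, the scale, quantile normalization, scan day as a block, 6 times as levels, leaving out each array, and the study's rule as rebuilt (linear intensity, periods from 19 h to 29 h, 100000 shuffled orders). The arrays of scan day 1 alone and the ordinary variance were added after seeing the data.

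The members and lists were chosen with earlier results of these data known. Genes named were the 5 members, GI, up to 4 rhythmic and 2 other genes per list, and the 3 nearest profiles of each member. THI2.1, JMT, PDF1.2 and ETP2 were added to complete small counts, after their values were seen. CHI, CCR2 and TTL were removed from lists because the annotation pairs these symbols with other genes than those meant.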

Additional observations from a re-analysis of the deposited data

How the results depend on the processing

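The HYH rhythm kept its call without any one array (adjusted p from 0.00200 to 0.0410), but lost it on linear intensities (0.0534), with 6 circadian times as levels (0.0654) and with the ordinary variance (0.0707). HYH fell below the filter that kept the upper 50% of probe sets and has no value there. The MYC4 rhythm lost its call without the intensity filter (0.0978), on linear intensities (0.0641), after quantile normalization (0.0629), with scan day as a block (0.150), with 6 levels (0.310), in scan day 1 alone (0.210) and with the ordinary variance (0.104). Leaving out each array gave 0.0198 to 0.121, with 10 of 12 calls lost. The EIN3 rhythm lost its call without the filter (0.0685), with scan day as a block (0.0694), with 6 levels (0.230) and in scan day 1 alone (0.468), and leaving out each array gave 0.0412 to 0.150, with 8 of 12 lost (without 24, 28, 32, 52, 56, 60, 64 or 68 h). The log2 amplitudes moved little with scan day as a block and in scan day 1 alone (0.14 and 0.13 for EIN3, 0.15 and 0.18 for MYC4), and the filter leaves them as they were. HYH, MYC4 and EIN3 passed the study's rule as rebuilt, without adjustment (permutation p = 0.0126, 0.0150 and 0.00333, one-sided for the best fit). BIM1 passed this rule too (permutation p = 0.0440), and the share of all genes the rule calls was not computed. BIM1 also passed without 36 h (0.0321), in a range of 0.0321 to 0.262 over the arrays left out. MYC3 passed under no setting run. The sign of the slope turned for HYH without 24 h and without 52 h (adjusted p from 0.681 to 0.956 over the arrays left out). It turned for MYC4 with scan day as a block (0.953), in scan day 1 alone (0.967) and without 68 h (range 0.427 to 1.000). Neither slope passed under any setting run. The causes of these changes were not tested. The scan day block, the 6 levels, scan day 1 alone and the fits without 1 array all leave fewer degrees of freedom or arrays. No paired analysis was possible because there is 1 group and so no second group to pair it with. Arrays of the same circadian time in the 2 cycles are compared in the fit with 6 levels and in the test between cycles. Adjusted p-values are from limma.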

Other observations

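Genes whose symbol or a synonym in the RefSeq table is bHLH or bZIP with a number, the families of 4 of the 5 factors, were looked up after the values were seen, and these counts are a description. Of 7 other tested bHLH genes, bHLH34 was rhythmic, with a log2 amplitude of 0.18 ± 0.04 (SE) and a peak at CT22.1 (limma, adjusted p = 0.0392). Of 13 other tested bZIP genes, BZIP61 was rhythmic, with a log2 amplitude of 0.33 ± 0.07 (SE) and a peak at CT5.49 (adjusted p = 0.0144). Of these other genes, 1 bHLH and 1 bZIP gene were thus called, beside 11% of all tested genes. The counts cover only genes with such a numbered name, not the whole families. They also leave out the factors themselves, of which MYC4 and HYH were called.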
